A study of Mus musculus with 2 samples.

Results

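The Mir130 and Mir301 family was described in the hearts of newborn mice. Its members were the 4 microRNA genes Mir130a, Mir130b, Mir301 (the gene of miR-301a) and Mir301b, taken by symbol from the 2202 microRNA genes counted in each library, and all 4 were found. The hearts came from female B6CASTF1/J mice, hybrids of the C57BL/6 and CAST strains, at 4 days of age. Both hearts belonged to the same group, so the data hold no contrast of treatments, ages, sexes or tissues. Replicate 1 was the heart of the animal numbered 3 and replicate 2 that of the animal numbered 4, although the labels gave both the same donor entry. RNA under 30 nt was sequenced from whole heart tissue, so fewer cells of a type and less of a microRNA per cell cannot be told apart.

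A microRNA guides silencing complexes to transcripts that pair with its seed, bases 2 to 8 from its 5′ end, and genes that share a seed are grouped as a family. A hairpin precursor yields a 5p and a 3p strand, and in this family the 3p strands carry the shared seed. Mir130a is known from the control of Zfpm2 (FOG-2), a cofactor in heart development, and, in human endothelial cells, from the regulation of homeobox genes that restrain vessel growth. In pulmonary vascular cells the family is known for repressing PPAR-gamma.

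The mature sequences show how closely the members are related and where they part. They are given 5′ to 3′ from RefSeq (GRCm38.p6), with the seed in capitals.

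miR-130a-3p: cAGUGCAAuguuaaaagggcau
miR-130b-3p: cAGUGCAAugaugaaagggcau
miR-301a-3p: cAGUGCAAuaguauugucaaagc
miR-130a-5p: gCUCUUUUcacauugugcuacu
miR-130b-5p: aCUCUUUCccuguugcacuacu
miR-301a-5p: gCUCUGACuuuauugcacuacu
miR-301b-5p: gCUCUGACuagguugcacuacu

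The listed 3p strands began with the same 9 bases. Counted from 1 at the 5′ end, miR-130b-3p differed from miR-130a-3p by U11A and A13G and was the same at 20 of 22 positions. Over the same 22 positions miR-301a-3p matched miR-130a-3p at 12, the first difference being G10A. The 5p strands had other seeds, which miR-301a-5p and miR-301b-5p shared and which differed between miR-130a-5p and miR-130b-5p. Because the deposited counts are per hairpin gene, a member's value sums both strands.

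The hairpins show where the seed lies in each precursor (RefSeq, GRCm38.p6, 5′ to 3′, seed of the 3p strand in capitals).

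Mir130a: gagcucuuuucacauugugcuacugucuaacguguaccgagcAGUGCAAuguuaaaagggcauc
Mir130b: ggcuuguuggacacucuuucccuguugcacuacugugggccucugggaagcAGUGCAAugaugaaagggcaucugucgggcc
Mir301: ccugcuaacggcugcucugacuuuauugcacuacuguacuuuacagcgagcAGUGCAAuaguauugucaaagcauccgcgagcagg
Mir301b: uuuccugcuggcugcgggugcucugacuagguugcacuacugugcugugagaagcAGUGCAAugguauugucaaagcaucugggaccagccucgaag

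The 4 hairpins, of 64, 82, 86 and 97 bases, each held the seed once. Mir301 and Mir301b had the longest stretch in common among the members, 16 bases (guauugucaaagcauc). The longest stretch any member shared with another hairpin of the table was the 17 bases of Mir130a also found in Mir6389, and no member reached the 20 bases used here to mark genes that may lose reads to a copy. The rest of the genome was not searched for copies.

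The members lie at 3 loci (mm10, GENCODE M21). Mir130a (ENSMUSG00000065484.1; chromosome 2, 84741115 to 84741178, minus strand) overlaps no other annotated gene, and the nearest is Gm19426, 990 bases away on the same strand. Mir301 (ENSMUSG00000065589.1; chromosome 11, 87113004 to 87113089, plus strand) lies in an intron of Ska2, a gene of the spindle and kinetochore, on the same strand, in 2 of its 3 transcripts. Mir130b (ENSMUSG00000065572.1; chromosome 16, 17124061 to 17124142, minus strand) and Mir301b (ENSMUSG00000076288.1; chromosome 16, 17124400 to 17124496, minus strand) lie 257 bases apart within the protein-coding gene 2610318N02Rik, on its strand. They share an intron in 3 of its 8 transcripts, and the other 5 do not span them. No other microRNA gene lies within 10 kb of a member.

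Counts over microRNA genes totalled 6417302 in replicate 1 and 5662222 in replicate 2, and levels are given as CPM, a gene's count scaled to that total. Reads that mapped to several places, 39.6% of all reads in replicate 1 and 43.2% in replicate 2, are in no gene's count. The heart muscle markers Mir208a, Mir208b, Mir499 and the Mir1a and Mir133a copies, 7 genes of which 5 had at least 10 counts in each library, made up 2.10% of replicate 1's counts and 1.92% of replicate 2's. Markers of white blood cells held 0.178% and 0.155%, of red blood cells 0.0788% and 0.0300%, of epithelium 0.0595% and 0.0662%, of skeletal muscle 0.0719% and 0.00600%, and the liver gene Mir122 0.0105% and 0.00862%, in replicate 1 and replicate 2. Of the 6 neuronal genes (Mir124a and Mir9 copies), 4 had 0 counts in both libraries. Reads that map to more than 1 copy of Mir1a, Mir133a, Mir124a or Mir9 are in none of these counts. The heart muscle and neuronal values can therefore be too low, and they are not comparable in size with lists of single-copy genes. By the call described below, 2 of the 7 heart muscle genes (Mir499 and Mir1a-1) and 3 of the 7 epithelial genes were higher in replicate 2. Of all genes tested, 7.54% were called in that direction. Called higher in replicate 1 were 2 of 3 red blood cell genes and Mir206 of skeletal muscle, against 3.67% of all genes tested. Of the 55 genes called in all, 40 were also called under scaling by total counts, and edgeR's exact test called 4. The median log2 ratio of replicate 1 over replicate 2 was −0.77 for the heart muscle list, although its summed share was slightly higher in replicate 1, and −0.76 for the epithelial list. It was 1.56 for red blood cells and −0.36 for white blood cells, of which 1 of 5 genes was called in each direction. The part of these lists in the values below was not tested.

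All 4 members were detected, that is, had at least 10 counts in each library, as did 16.9% of all microRNA genes. Mir130a was by far the most abundant, followed in both hearts by Mir130b, Mir301 and Mir301b. Together they held 10556 CPM in replicate 1 and 8555 CPM in replicate 2 (mean 9555 ± 1415, SD, n = 2). That is 1.06% of all counts in replicate 1 and 0.856% in replicate 2. The exact (Clopper-Pearson) 95% interval ran from 1.05 to 1.06% for replicate 1 and from 0.848 to 0.863% for replicate 2. These intervals cover counting error only. They treat reads as independent molecules, which reads without molecular identifiers need not be. The gap between the hearts was wider than either interval, but it depends on the scaling. For the family sum, the log2 ratio of replicate 1 over replicate 2 was 0.30 by total counts. It was −0.03 with the TMM factors used in the test below.

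Mir130a had 58971 counts in replicate 1 and 43992 in replicate 2. This was 9189 CPM in replicate 1 and 7769 CPM in replicate 2, with a mean of 8479 ± 1004 CPM (SD, n = 2). It stood 24th of all genes in each library. The genes next to it in mean level were Mir151 above, at 9163 CPM in replicate 1 and 8705 CPM in replicate 2, and the cardiac myosin intron gene Mir208a below, at 10883 CPM in replicate 1 and 6019 CPM in replicate 2. The ranges of Mir130a and both neighbours overlapped, so their order is not resolved by these libraries.

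Mir130b, the closest sequence relative of Mir130a, had 6016 counts in replicate 1 and 2792 in replicate 2. Its levels were 937 CPM in replicate 1 and 493 CPM in replicate 2 (mean 715 ± 314, SD, n = 2). It ranked 79th in replicate 1 and 96th in replicate 2. In CPM the spread between the hearts was the widest of the family, with an SD of 43.9% of the mean. The median was 21.2% over the 373 detected genes, of which 55 had a larger one than Mir130b. This order depends on the scaling. With the TMM factors used in the test below, the log2 ratio between the hearts was larger in size for Mir301b (−0.76) than for Mir130b (0.59). The SD was 11.8% of the mean for Mir130a, 29.5% for Mir301 and 20.6% for Mir301b.

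Mir301 had 2643 counts in replicate 1 and 1528 in replicate 2, or 412 and 270 CPM (mean 341 ± 100, SD, n = 2). It ranked 115th in replicate 1 and 124th in replicate 2. Both of its values lay below both values of Mir130b, and the gap from the lower Mir130b value (493 CPM) to the higher Mir301 value (412 CPM) was smaller than the spread within either gene.

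Mir301b had 109 counts in replicate 1 and 129 in replicate 2, or 17.0 and 22.8 CPM (mean 19.9 ± 4.10, SD, n = 2). It ranked 269th in replicate 1 and 239th in replicate 2. It was the lowest member in both hearts and lay below the median level of the detected genes, 75.2 CPM, while the other 3 lay above it.

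**Figure D1:**
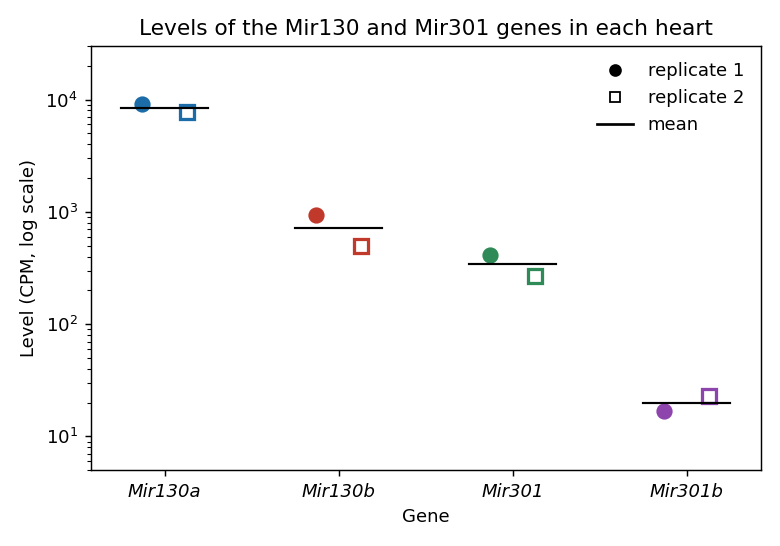
Level of each gene in CPM on a log scale, with filled circles for replicate 1, open squares for replicate 2 and a line at the mean. Mir130a lies near 8479 CPM and Mir301b near 19.9 CPM, and no member's pair of values overlaps that of another.

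The RefSeq table held 4 further genes whose mature sequence has the family's seed. They are shown because they carry the members' seed without their counts.

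miR-130c: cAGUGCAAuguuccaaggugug
miR-6341: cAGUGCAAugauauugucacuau
miR-6389: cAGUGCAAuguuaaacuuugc
miR-721: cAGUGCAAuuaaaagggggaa

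Mir130c on chromosome 9, Mir6341 on chromosome 1, Mir6389 on chromosome 7 and Mir721 on chromosome 5 had 0 counts in both libraries. A count of 0 allows, at 3 counts, a level of up to 0.467 CPM in replicate 1 and 0.530 CPM in replicate 2. All counts over genes with this seed thus lay in the members, as far as reads with a single mapping place show. When genes were grouped by the seeds of their mature sequences, this seed stood 34th in mean CPM among all 1352 seeds. Among the 205 seeds carried by at least 2 genes it stood 15th. Seeds of genes with near-identical copies can rank too low, because reads with several mapping places are not counted. A gene counts under the seed of each of its strands in these rankings. Mir301b was not part of this seed's sum because its entry there is the 5p strand.

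Within the family, Mir130a made up 87.1% of the counts in replicate 1 (exact 95% bounds 86.8 and 87.3) and 90.8% in replicate 2 (90.6 and 91.1). Mir130b made up 8.88% in replicate 1 (8.67 to 9.10) and 5.76% in replicate 2 (5.56 to 5.97). Mir301 made up 3.90% in replicate 1 (3.76 to 4.05) and 3.15% in replicate 2 (3.00 to 3.31). For these 3 genes the intervals of the hearts did not overlap. The make-up of the family thus shifted by more than counting error, if reads are taken as independent molecules. Mir301b made up 0.161% in replicate 1 (0.132 to 0.194) and 0.266% in replicate 2 (0.222 to 0.316), and these intervals did not overlap either. The shares of the members add up to the whole, so these are not separate shifts. Over both hearts the shares averaged 88.9% ± 2.66 for Mir130a, 7.32% ± 2.20 for Mir130b, 3.53% ± 0.528 for Mir301 and 0.214% ± 0.0745 for Mir301b (SD, n = 2).

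**Figure D2:**
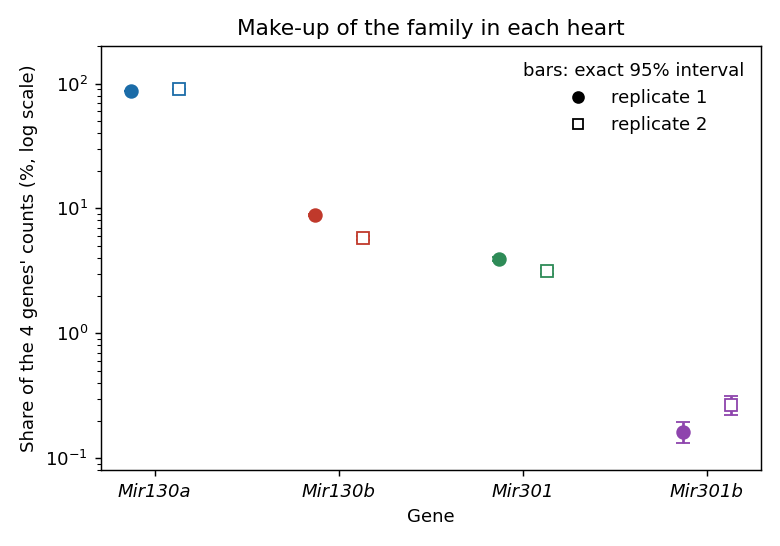
Share of the 4 genes' summed counts held by each gene, in percent on a log scale, with filled circles for replicate 1 and open squares for replicate 2. Bars are exact 95% intervals of counting error, smaller than the symbol for most points. Mir130b fills 8.88% in replicate 1 and 5.76% in replicate 2, while Mir130a and Mir301b are higher in replicate 2.

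Set pairwise, so that no scaling of the libraries enters, Mir130a outnumbered Mir130b 9.80-fold in replicate 1 and 15.8-fold in replicate 2. It outnumbered Mir301 22.3-fold in replicate 1 and 28.8-fold in replicate 2. Mir130b outnumbered Mir301, at another locus, 2.28-fold in replicate 1 and 1.83-fold in replicate 2, the most even of the 6 pairs.

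The difference between the hearts was tested gene by gene over the 491 microRNA genes with at least 10 counts in the sum. It was a two-sided exact binomial test, with the library sizes adjusted by TMM factors. A gene was called at a Benjamini-Hochberg adjusted p under 0.05 and a fold over 2. It compares 2 libraries of the same group, with counting noise as its only noise, and says nothing about a condition. Of the 4 members 0 were called, against 11.2% of all genes tested (3.67% higher in replicate 1 and 7.54% higher in replicate 2). All 4 had an unadjusted p and an adjusted p under 0.05 at folds inside 2. Such p-values were common: at any fold, 51.1% of all genes tested had an unadjusted p under 0.05 and 47.9% an adjusted one. EdgeR's exact test, its dispersion estimated from these same 2 libraries as the same group, called 0 of the 4 and 0.815% of all genes. Members with an unadjusted p under 0.05 there numbered 0, against 5.3% of all genes. The spread between the libraries is thus part of that test's noise, so its lack of calls does not show equal levels.

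Mir130b was the member farthest toward replicate 1, with a log2 ratio of 0.59 for replicate 1 over replicate 2 (counting SE 0.03, 1.51-fold, exact binomial test, adjusted p = 1.07e-74). Mir301 followed at 0.28 (counting SE 0.05, 1.21-fold, exact binomial test, adjusted p = 5.66e-09). Mir130a lay near even at −0.09 (counting SE 0.01, 1.06-fold, exact binomial test, adjusted p = 1.71e-22). Mir301b lay the other way at −0.76 (counting SE 0.19, 1.69-fold, exact binomial test, adjusted p = 0.00015). The median absolute log2 ratio was 0.44 over the members and 0.44 over all genes tested. Of the 491 genes, 121 had a larger absolute ratio than Mir301b, 164 than Mir130b, 327 than Mir301 and 438 than Mir130a.

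Scaling by total counts adds 0.33 to every log2 ratio and puts the median of all genes tested at 0.31 in place of −0.02. On that scale Mir130b stood at 0.93 (1.90-fold) and Mir301 at 0.61. Mir130a, at 0.24, changed sign and lay below that median. Mir301b stayed negative at −0.42, but no longer passed the adjusted p (0.0535, exact binomial test), so its difference from counting noise depends on the scaling. Over the 7 alternatives its adjusted p ran from 0.000114 to 0.0535 in the binomial test and was 1 in edgeR's exact test. The direction of Mir130a between the hearts was thus not fixed by these data.

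**Figure D3:**
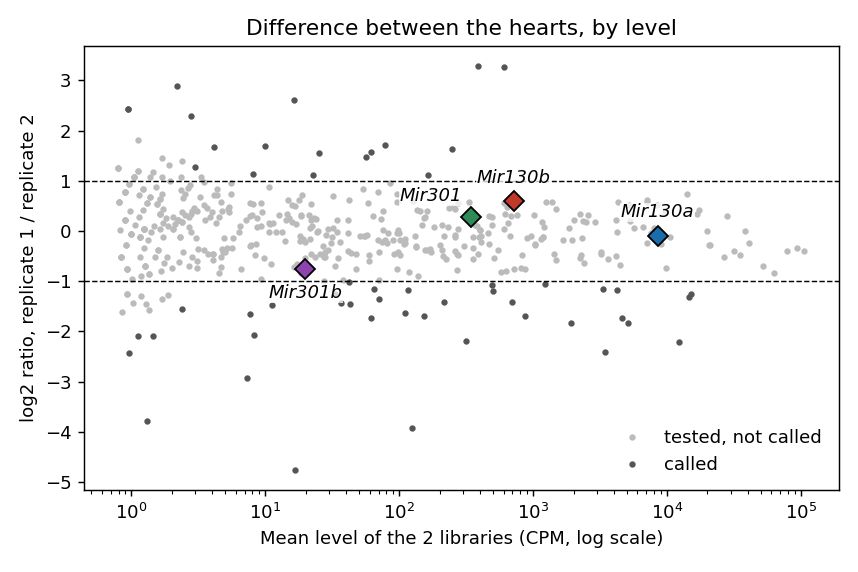
log2 ratio of replicate 1 over replicate 2 (TMM scaling) against the mean level in CPM on a log scale, for the 491 genes tested. Light points are genes not called, dark points genes called, coloured diamonds the members, and dashed lines mark 2-fold. All 4 members lie between the lines, from −0.76 for Mir301b to 0.59 for Mir130b.

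Mir130b and Mir301b, neighbours on the same strand, had log2 ratios of opposite sign between the hearts under both TMM and total-count scaling. Mir130b outnumbered Mir301b 55.2-fold in replicate 1 and 21.6-fold in replicate 2. Mir301b made up 1.78% of the pair's counts in replicate 1 (exact 95% bounds 1.46 and 2.14) and 4.42% in replicate 2 (3.70 and 5.23). The ratio thus shifted 2.55-fold between the hearts, in counts that share a library and whatever its scaling.

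Both the gap and the shift were on the large side for neighbouring microRNA genes. The comparison was made over 113 pairs of detected genes next to each other on a strand within 10 kb. In the median pair the higher gene outnumbered the lower 5.36-fold, against 34.6-fold for Mir130b over Mir301b (mean of the log2 ratios of both hearts), and 9 pairs had a larger gap. The median shift between the hearts was 1.42-fold, and 11 pairs shifted by more than 2.55-fold. Among the pairs with a larger gap were Mir143 over Mir145a (33.6-fold in replicate 1 and 36.4-fold in replicate 2) and Mir214 over Mir199a-2 (268-fold in replicate 1 and 130-fold in replicate 2). Pairs in one cluster share genes, and some hold genes with near-identical copies whose reads map to several places, so these counts are a description and carry no test.

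**Figure D4:**
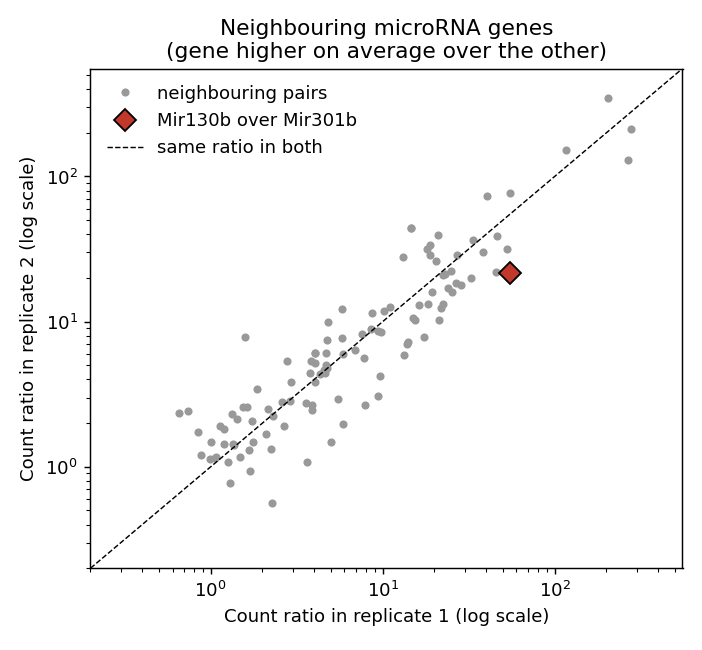
Count ratio of neighbouring microRNA genes in replicate 1 (horizontal axis) and in replicate 2 (vertical axis), on log scales, for 113 pairs, with the gene that is higher on average on top. The diamond is Mir130b over Mir301b, at 55.2 in replicate 1 and 21.6 in replicate 2, below the dashed line of equal ratios.

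The genes closest to each member in level over the 2 libraries were found by Euclidean distance of log2(CPM + 1) among detected genes. For Mir130a they were Mir151 (distance 0.16), Mir28a (0.18) and Mir125a (0.23). For Mir130b they were Mir467d (0.21), Mir155 (0.23) and Mir409 (0.24), and Mir210 was the next gene below it in mean level. Mir301 lay closest to Mir200c (0.08), Mir1306 (0.12) and Mir134 (0.12), with Mir540 below it. Mir301b lay closest to Mir183 (0.15), Mir194-2 (0.16) and Mir199a-2 (0.28), with Mir7j above and Mir495 below. With 2 libraries, such likeness describes levels only. Reads that map to several places are in no gene's count, so a gene with a near-identical copy can be placed too low here.

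Mir148a, Mir148b and Mir152 carry a seed that is the Mir130 and Mir301 seed shifted by 1 base, and they were set beside the family for that. Seeds shifted the other way were not compared.

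miR-148a-3p: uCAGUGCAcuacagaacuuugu
miR-148b-3p: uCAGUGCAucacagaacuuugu
miR-152-3p: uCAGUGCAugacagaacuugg

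These 3 genes made up 0.110% of replicate 1's counts and 0.100% of replicate 2's, against 1.06% and 0.856% for the Mir130 and Mir301 genes. Mir148a held 674 ± 78.3 CPM, Mir152 268 ± 16.3 CPM and Mir148b 109 ± 3.45 CPM (SD, n = 2). Mir130a alone thus exceeded all 3, and both values of Mir148a, 729 and 619 CPM, lay between the 937 and 493 CPM of Mir130b in replicates 1 and 2. Of the 3, 0 were called by the exact binomial test (11.2% of all genes), with 3 at an unadjusted p under 0.05 (51.1% of all genes). EdgeR's exact test called 0 (0.815% of all genes), with 0 under that p (5.3% of all genes). Their median log2 ratio was −0.27, against −0.02 over all genes tested.

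In pulmonary vascular cells Mir204 and the pair Mir322 and Mir503 (the mouse counterparts of human miR-424 and miR-503) are known to act downstream of the family through PPAR-gamma. Mir322 held 24892 CPM in replicate 1 and 28379 CPM in replicate 2, above Mir130a in both. Mir503 held 926 CPM in replicate 1 and 1527 CPM in replicate 2, and Mir204 26.0 CPM in replicate 1 and 29.5 CPM in replicate 2. Of these 3 genes 1 was called, Mir503, higher in replicate 2 (log2 ratio −1.05, 2.08-fold), against 7.54% of all genes in that direction. Under scaling by total counts it came inside 2-fold (−0.72), and edgeR's exact test did not call it. The median log2 ratio of the 3 was −0.52.

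Mir130a is also known as an angiogenic microRNA, and 13 endothelial and angiogenic genes were set beside it. Of these, 12 were detected, and the list made up 13.9% of replicate 1's counts and 14.6% of replicate 2's. Its highest gene was the endothelial Mir126a (62420 ± 14977 CPM, SD, n = 2). Next came Mir23b (41012 ± 2059 CPM) and Mir23a (28059 ± 8564 CPM; SD, n = 2). The list's share was not tested as a measure of endothelial cells. Of the 12 tested, 0 were called higher in replicate 1 (3.67% of all genes) and 1, Mir27b, higher in replicate 2 (log2 ratio −1.18, 2.26-fold; 7.54% of all genes). Under scaling by total counts Mir27b came inside 2-fold (−0.84) and Mir222 was called instead, higher in replicate 1 (1.29, against 0.96 under TMM). EdgeR's exact test called neither. Mir210, the hypoxia-responsive gene that ranked next to Mir130b, had 611 CPM in replicate 1 and 819 CPM in replicate 2, while Mir130b had 937 CPM in replicate 1 and 493 CPM in replicate 2. Their order was thus opposite in the hearts. Mir23a, Mir23b, Mir24-1, Mir24-2, Mir27a, Mir27b and Mir92-1 of this list each share at least 20 bases with another hairpin, and reads that map to both copies are in neither count.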

How the data were processed

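MicroRNA libraries of 2 hearts of the same group were analysed, numbered by the biological replicate in the labels. The authors deposited unnormalized counts for each microRNA gene, on mm10 and GENCODE M21 per the file headers. Which aligner, counter and adapter trimming were used is not given in the sources used here. The own-strand column was used, which held 84.0% and 82.8% of the stranded counts in replicates 1 and 2. The rest is not a share of antisense reads, because reads of a gene also count as opposite-strand for a gene overlapping it. Mir126b, which overlaps Mir126a on the other strand, held 332588 opposite-strand counts in replicate 1, beside 332605 own-strand counts of Mir126a. Summary entries (unmapped, multi-mapped, outside genes; 55.6% and 58.0% of all reads) stayed out of library sizes and tests. CAST variants were not examined.

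CPM used each library's own-strand total. The binomial test used TMM factors of 1.12 and 0.891 (edgeR 4.0.16, R 4.3.3), 0.5 added to each count in log2 ratios, and was tested on simulated data. That simulation held counting noise only, so it does not cover the spread between these libraries. With 1 library on each side a quasi-likelihood fit has no residual degrees of freedom. Alternatives used DESeq2 1.42.0 size factors and edgeR's exact test (common dispersion 0.125). Sequences came from RefSeq (GRCm38.p6), where all 4 members matched. Python 3.11.15, scipy 1.17.1, pandas 2.3.3, numpy 2.4.6 and matplotlib 3.10.9 were used.

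Named genes were the members, genes with their seed or within 10 kb, the 3 nearest in level, the neighbours in rank, and fixed lists. The members and lists were chosen with earlier results of these data known. That the replicates came from different animals rests on the labels. The binomial p-values set the difference between these libraries against counting noise only. They do not allow for the spread between libraries, and the difference may be technical.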

Additional observations from a re-analysis of the deposited data

Results flagged for a closer look

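The opposite-strand column, which enters no comparison, held 4 counts for Mir130a in replicate 1, above the 3 counts that a count of 0 allows, and 0 in replicate 2, beside 58971 and 43992 own-strand counts. The other 3 members had 0 opposite-strand counts in both libraries.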

How the results depend on the processing

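Of 74 alternative values computed, 64 kept their direction and call or moved by less than the spread between the hearts, 9 moved by more and 1 reversed. With all mapped reads as the denominator, Mir130a held 4155 CPM, Mir130b 353, Mir301 168 and Mir301b 9.67, and the family 0.469% of reads. In the column without strand, which leaves out overlapping genes, Mir130a held 10582 CPM, Mir301b 24.9 CPM and the family 1.19%. Scaling by total counts reversed the log2 ratio of Mir130a (0.24, against −0.09). It also changed the genes called from 55 (18 higher in replicate 1) to 61 (39 higher in replicate 1), of which 40 were shared. EdgeR's exact test called 4 genes, because its dispersion includes the spread between the libraries. No member was called under any of the 7 alternatives of the test. Single libraries gave the family 0.856% to 1.06% of counts. Detection of all 4 members also held at 100 counts and at 1 CPM in each library. The 109 and 129 counts of Mir301b limit its precision. No paired analysis was possible because there is 1 group.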
